A study of Homo sapiens with 4 samples.

Results

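Moved ac4C peaks were peaks of genes that had at least 1 peak in both conditions, but at places that did not meet. A gene counted as moved where none of its peaks in the control list overlapped any of its peaks in the NAT10 knockdown list by 1 bp or more over exonic blocks on the same strand. Of the 3241 genes with a peak in both lists, 446 met this rule, which is 13.8% (95% Wilson interval 12.6 to 15, for the sampling of genes only). They held 1018 of the 12820 peaks in the series, 510 of 6403 in the control list and 508 of 6417 in the knockdown list. The members were selected on the measured peak positions, so their lack of overlap is a description and not a result.

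The peaks came from acRIP-seq of FaDu cells, an established human line derived from a hypopharyngeal squamous carcinoma. One stable line carried a non-targeting shRNA (shNC) and the other an shRNA against NAT10 (shNAT10), both made with a lentiviral pLKO.1 vector and puromycin selection. Each condition had 1 IP and 1 input library, 4 libraries in all, and the hairpin used for the sequenced shNAT10 line is not given in the sources used here. No value below has a replicate, and a difference between the lines cannot be told apart from a difference between 2 cultures. Sequencing depth is unknown, since the lists give peaks without read counts. Of the 13 squamous epithelial markers checked, 6 had a listed peak in shNC and 5 in shNAT10, TP63, SFN and LAMB3 among them. COL1A1 was the 1 fibroblast marker of 5 with a peak, in shNC, and 0 of 4 leukocyte and 0 of 3 endothelial markers had one. None of these markers had moved peaks. NAT10 itself had 1 peak in each list, and these overlapped. A peak list does not show how far the knockdown lowered NAT10.

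N4-acetylcytidine (ac4C) is a cytidine that carries an acetyl group, and NAT10 is the acetyltransferase known to write it on rRNA, tRNA and mRNA. In mRNA the mark has been linked to transcript stability and to translation, with effects that depend on where in the transcript it lies. In acRIP-seq, RNA fragments bound by an antibody against ac4C (IP) are sequenced beside the starting RNA (input), and a peak is a stretch where IP reads exceed input reads. CXXCXXCXXCXX, where X is any base, is a sequence pattern that has been described around acetylated cytidines.

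The genome sequence under most moved peaks was not analysed here, but 8 moved peaks, 4 from each list, reached into a 300-base RefSeq promoter window (GRCh38.p14) of the same strand. Stretches from 3 of them are shown because they mark peaks that lay at a gene's start in 1 condition and near its other end in the other, or because they hold the pattern. Positions are in GRCh38 and counted from 1. The peaks of RBM42, an RNA-binding protein, and IFT122, a component of intraflagellar transport, were of the first kind. The shNAT10 peak on the RefSeq gene TMEM201, which encodes a protein of the inner nuclear membrane, reached into the window of the neighbouring RefSeq entry LOC124903837. Capitals mark a match to CXXCXXCXXCXX on the RNA strand.
RBM42, shNC peak, chr19:35629060-35629085: gagcccacccggacgaagggggagag
IFT122, shNAT10 peak, chr3:129440186-129440215: tcgcactcagcttaccgcgcatgtacgttg
TMEM201, shNAT10 peak, chr1:9614683-9614712: ctgagggcgCTCCCTCCTCTCagccgggca
The part of the peak inside the window was 26 bases for RBM42, 88 for IFT122 and 140 for TMEM201, and only the last part held a match. The whole RBM42 shNC peak, of 180 nt, held 3 listed sites of the pattern, all outside that part. Among all 35116 RefSeq promoter windows, the share with a match at the same offsets was 12%, 41.3% and 55.9%. These matches are a description of letters and not of acetylated sites.

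The move was mostly a matter of a single pair of peaks. In 347 of the 446 moved genes (77.8%, 73.7 to 81.4) there was exactly 1 peak in each list, and the other 99 genes had up to 8 peaks. Among all genes with 1 peak in each list, 347 of 1874 were moved (18.5%, 16.8 to 20.3). Among genes with 2 or more peaks in a list, 99 of 1367 were moved (7.24%, 5.98 to 8.74). A gene with more peaks has more pairs that can overlap, so this difference is partly set by the rule.

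Moved peaks were weak peaks. The median log10 FDR of a moved peak was -3.82 in shNC (quartiles -9.21 and -2.02) and -3.52 in shNAT10 (-7.49 and -1.96). Peaks that overlapped a peak of their gene in the other list had a median of -26.1 in shNC and -24.4 in shNAT10. The fold enrichment of IP over input had a median of 10.4 for moved and 15.9 for overlapping shNC peaks, and of 11 and 15.3 in shNAT10. An FDR of at most 0.05 was reached by 443 of 510 moved shNC peaks (86.9%), against 91.9% of all peaks in that list and 98.1% of the overlapping ones. In shNAT10 the counts were 432 of 508 (85.0%), 91.7% of all peaks and 98.1% of the overlapping ones. At an FDR of at most 1e-10 the gap was wider, with 22.4% of moved against 47.3% of all shNC peaks, and 18.3% against 45.5% in shNAT10. The difference from overlapping peaks at that limit was -49.1 percentage points in shNC (95% interval by Newcombe's method -52.8 to -45.0) and -51.0 in shNAT10 (-54.5 to -47.1).

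In strength, moved peaks lay close to peaks of genes that were listed in 1 condition only. Those had a median log10 FDR of -3.45 in shNC (1949 peaks) and -3.57 in shNAT10 (1948 peaks), and a median fold enrichment of 11 in both. The share with an FDR of at most 1e-10 differed between moved and such peaks by 1.57 percentage points in shNC (-2.30 to 5.77) and by -1.41 in shNAT10 (-5.02 to 2.58). Peaks that had no partner in a gene with another overlapping pair had medians of -4.39 (656 peaks) and -4.12 (666 peaks). The share of moved peaks at the 1e-10 limit differed from theirs by -2.34 points in shNC (-7.18 to 2.60) and by -5.87 in shNAT10 (-10.5 to -1.12).

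Genes were then ordered by the FDR of their best peak in the condition where that peak was weaker. They were divided in this order into 4 groups of equal size. In the strongest group 0 of 811 genes were moved, which allows a share of up to 0.370%. The share was 1.6% (13 of 810) in the next group and 14% (113 of 810) in the one after it. In the weakest group it was 39.5% (320 of 810, 36.2 to 42.9). Both best peaks reached an FDR of at most 0.05 in 346 moved genes and of at most 1e-10 in 17. Among genes with an overlapping pair, 60.5% (1690 of 2795) passed the latter limit. Peak length and the number of peaks per gene enter the overlap rule and were not matched across these groups. The differences between the groups may thus be partly set by the rule. Depth and expression, which could move with peak strength, were not tested.

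The gap between the nearest shNC and shNAT10 peaks of a gene was measured along the genome, introns included. Its median was 479 nt (95% interval 417 to 627), with quartiles at 147 and 2183 nt and a range from 19 to 369422 nt. It was at most 100 nt in 86 genes (19.3%), at most 1000 nt in 277 (62.1%) and above 10000 nt in 37 (8.30%). Just inside the rule, 32 genes had a gap of 29 nt and 5 a smaller one. Just outside it, 28 genes had 1 nt as their largest overlap. Peak lengths followed steps of 30 nt: 97.3% of moved shNC peaks and 96.9% of moved shNAT10 peaks were within 1 nt of a multiple of 30, against 87.1% and 86.9% of all peaks. Moved peaks had a median exonic length of 181 nt (shNC) or 180 nt (shNAT10), against 270 and 269 nt for overlapping peaks. Length enters the overlap rule, so this difference is given without comparison.

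The direction of the move was close to even. The shNAT10 peak lay nearer the 3′ end of the gene than the shNC peak in 215 of 446 genes (48.2%, 43.6 to 52.8) and nearer the 5′ end in 231. For genes with several peaks, the mean of the midpoints was used. The share was 47.0% (41.8 to 52.2) among genes with 1 peak in each list and 48.8% (43.6 to 54.1) where both best peaks had an FDR of at most 0.05. Split by the size of the shift, it was 46.3% up to 500 nt (62 of 134), 60.8% from there to 1000 nt (48 of 79, 49.7 to 70.8), 44.7% to 5000 nt (63 of 141) and 45.7% beyond (42 of 92). Every one of these intervals held 50%. The median shift was 955 nt toward the 3′ end (808 to 1205) and 1362 nt toward the 5′ end (927 to 1783).

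**Figure D1:**
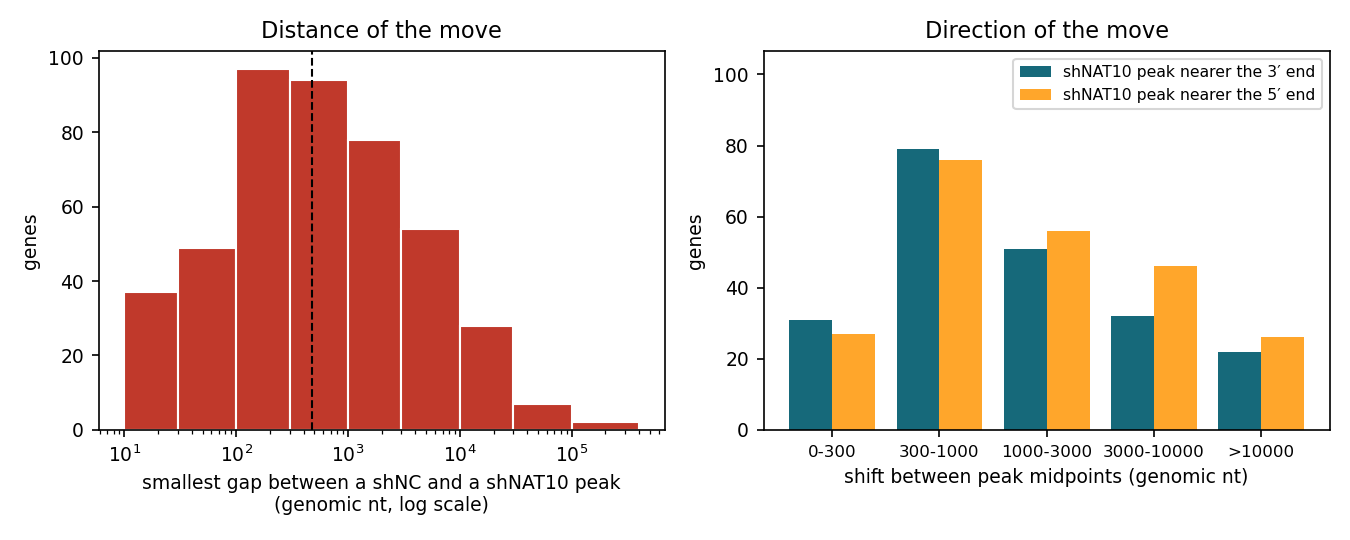
Left, number of moved genes by the smallest gap between a shNC and a shNAT10 peak (nt, logarithmic axis), with the median of 479 nt dashed. Right, number of moved genes whose shNAT10 peak lay nearer the 3′ or the 5′ end, by the size of the shift between midpoints (nt); from 300 to 1000 nt there were 79 and 76 genes.

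Peaks were also placed against the 3′ end of their gene, where this could be found on 1 RefSeq gene. The midpoint lay within 1 kb of the 3′ end in 193 of 388 moved shNC peaks (49.7%, 44.8 to 54.7) and in 167 of 387 moved shNAT10 peaks (43.2%, 38.3 to 48.1). The share was 63.1% of 2621 and 63.6% of 2620 overlapping peaks. It was 54.6% of 1404 and 56.8% of 1397 peaks of genes listed in 1 condition only. Unpaired peaks of genes with an overlapping pair had the lowest share, 30.9% of 557 and 32.4% of 559. The rule selected genes on peak position, and peaks that may not meet cannot share the same place near the end, so a lower share in moved than in overlapping peaks is partly built in. These values are therefore a description. The median distance to the 3′ end was 1006 nt in shNC (849 to 1283) and 1655 nt in shNAT10 (1141 to 1980), against 474 and 476 nt for overlapping peaks, introns included.

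A moved peak crossed a splice junction, spanning 2 or more exonic blocks, in 95 of 510 cases in shNC (18.6%) and 100 of 508 in shNAT10 (19.7%). The overlapping peaks did so in 29.1% and 28.4%. Among peaks with an FDR between 1e-10 and 0.05, where the median length was 180 nt for moved and 181 nt for overlapping peaks in both lists, this difference was -0.03 points in shNC (-4.55 to 4.99) and -1.48 in shNAT10 (-5.71 to 3.27). Unpaired peaks of genes with an overlapping pair, whose median length was 180 nt in both lists, crossed a junction in 29.7% and 27.5%. The moved peaks differed from these by -11.1 points in shNC (-15.9 to -6.16) and -7.79 in shNAT10 (-12.6 to -2.88). Unpaired peaks also lay less often near the 3′ end, as given above, and position was not matched here. Peaks of genes listed in 1 condition only also had a median length of 180 nt in both lists. Moved peaks differed from those by 1.44 points in shNC (-2.15 to 5.39) and 3.46 in shNAT10 (-0.184 to 7.46).

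The region class of a peak was known only where it overlapped a row of the authors' deposited table of differential peaks, which covered 157 of 510 moved shNC peaks and 104 of 508 moved shNAT10 peaks. This was 30.8% of moved against 35.7% of overlapping peaks in shNC, and 20.5% against 35.6% in shNAT10. The peaks with a class are thus not an equal selection from each kind, here and for the sites below. The 3′-UTR held 94 of the former (59.9%, 52.1 to 67.2) and 61 of the latter (58.7%, 49.0 to 67.6). CDS was the class of 27 and 16 peaks, exon with no finer class of 33 and 26, 5′-UTR of 3 and 0, and stop codon of 0 and 1. The 3′-UTR share exceeded that of overlapping peaks with a class by 8.81 points in shNC (0.488 to 16.7) and 7.72 in shNAT10 (-2.31 to 17.2). Among peaks with an FDR between 1e-10 and 0.05, the differences were -1.69 (-14.8 to 10.7) and -1.74 points (-18.2 to 13.5). Against unpaired peaks of genes with an overlapping pair, the 3′-UTR share of moved peaks was higher by 15.3 points in shNC (4.76 to 25.3) and 18.7 in shNAT10 (6.39 to 30.2). Against peaks of genes listed in 1 condition only, the sign was the opposite. The difference there was -5.25 points in shNC (-14.0 to 3.12) and -7.55 in shNAT10 (-18.0 to 2.40). The class follows from position, which the rule used, so these differences are partly set by it.

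Both places had a class in 46 moved genes, and in 35 of these the class was the same, 3′-UTR in 24, exon in 10 and CDS in 1. The best shNC peak was classed as 3′-UTR and the best shNAT10 peak as CDS in 6 genes. These were ATG9A, DTYMK, GRPEL1, LLPH, SDF2 and SMC4, the last of which encodes a condensin subunit. The reverse was found in BAZ2A, LRRC8D and SPCS1. RBM42 went from 5′-UTR in shNC to CDS in shNAT10, and TBL3 from CDS to exon. In ARIH2, CAMKMT and HMGN3, 1 differential row overlapped a moved peak of each condition.

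At least 1 CXXCXXCXXCXX site was listed in 80 of 157 moved shNC peaks with a class (51.0%, 43.2 to 58.7) and in 47 of 104 such shNAT10 peaks (45.2%, 36.0 to 54.8). The share was lower than in overlapping peaks by -12.6 points in shNC (-20.8 to -4.36) and -17.8 in shNAT10 (-27.4 to -7.81). The moved peaks were shorter, with a median of 211 nt in both lists against 326 and 300 nt. Per 100 nt, moved peaks held 0.450 sites in shNC and 0.370 in shNAT10, and overlapping peaks 0.502 and 0.496. Among peaks with an FDR between 1e-10 and 0.05, the share with a site differed by -4.70 points in shNC (-17.6 to 8.47) and -5.63 in shNAT10 (-21.1 to 10.8). This band did not match the peaks: the moved ones had medians of 208.5 nt and -6.68 in log10 FDR in shNC, against 180 nt and -4.73, and of 181 nt and -6.32 in shNAT10, against 180 nt and -4.50. Against peaks of genes listed in 1 condition only, the share with a site differed by 4.16 points in shNC (-4.62 to 12.9). In shNAT10 it differed by -5.41 points (-15.6 to 5.11). Against unpaired peaks of genes with an overlapping pair, it differed by -4.43 (-14.7 to 5.99) and -4.50 points (-16.4 to 7.67). These intervals included no difference. The highest number of sites in a moved peak was 9 in shNC and 8 in shNAT10.

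The moved genes with the strongest peaks in both lists began with NEAT1, the nuclear RNA that scaffolds paraspeckles. Its shNC peak (chr11:65440686-65440926) had a fold enrichment of 13.2 and a log10 FDR of -63.2. In shNAT10 a peak with 11 and -31.7 ended 59 nt upstream (chr11:65440356-65440626), and a further peak with 2.90 and -9.78 lay at chr11:65425165-65425285. NEAT1 was the only moved gene whose best peak was among the strongest 25% of peaks in both lists by FDR. NORAD, a cytoplasmic long noncoding RNA that binds Pumilio proteins, had a gap of the same size. Its fold enrichment was 35.2 in shNC (chr20:36045652-36045862) and 35.5 in shNAT10 (chr20:36045922-36046192), with log10 FDR of -19.0 and -11.6. For both RNAs the shNAT10 peak next to the shNC peak lay on its 5′ side.

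In other genes of this group the peaks were further apart. SPCS1, a subunit of the signal peptidase complex, had its shNC peak in the CDS (chr3:52706688-52706986, fold enrichment 18.8) and its shNAT10 peak in the 3′-UTR (chr3:52707886-52708066, 25.1), with a gap of 899 nt. CALM3, a calmodulin gene, had fold enrichments of 5.18 and 5.80 at places 1311 nt apart, and its log10 FDR was -99.2 in shNC and -19.2 in shNAT10. MRPL11, of the mitochondrial ribosome, went from 5.83 in shNC to 3.56 in shNAT10, where the peak lay on the 5′ side with a gap of 372 nt. The RNA-binding protein gene EWSR1 had 2 shNC peaks, of 3.21 and 46.3, downstream of a shNAT10 peak of 10.6 that spanned 3 exonic blocks. STYXL1, a pseudophosphatase, had its stronger peak in shNAT10 (fold enrichment 40.5, log10 FDR -105, against 9.81 and -19.8). BAZ2A, a chromatin remodelling subunit that acts on rDNA, had a CDS peak of 4.65 in shNC and a 3′-UTR peak of 14.4 in shNAT10, 7319 nt apart.

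SPG21, POC1A, CMPK1, CARS2, MARCH9 and CCM2 were also in this group. SPG21, a gene of hereditary spastic paraplegia, had the widest gap of the 14 described, at 11315 nt, with fold enrichments of 20.7 and 12.4. CMPK1, a nucleotide monophosphate kinase, had 3′-UTR peaks of 18.6 in shNC and 18.2 in shNAT10, 1012 nt apart. CCM2, an adaptor of endothelial junction signalling, had 14.7 and 13.3, 149 nt apart, and CARS2, the mitochondrial cysteinyl-tRNA synthetase, 19.3 and 21.1, 2007 nt apart. POC1A, a centriole protein, had 55.9 and 30.4, 119 nt apart. MARCH9, a membrane ubiquitin ligase, had 2 peaks in each list and a smallest gap of 88 nt. Of the 17 moved genes with an FDR of at most 1e-10 in both lists, 7 had the shNAT10 peak nearer the 3′ end and 10 nearer the 5′ end.

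RBM42 had the strongest moved peak of the shNAT10 list, a CDS peak (chr19:35634277-35637507) with a fold enrichment of 24.5 and a log10 FDR of -138. Its shNC peak, at the gene start shown above, had 18 and -9.66. It was described after its values were seen.

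TOP2A, DLD, NOTCH3 and HMGN3 were among the genes with the smallest gaps, from 19 to 29 nt. NOTCH3, a Notch receptor, had a log10 FDR of -2.68 at its best shNC peak and of -59.8 at its shNAT10 peak in the 3′-UTR, with fold enrichments of 5.30 and 45.9. HMGN3, a nucleosome-binding protein, had 6.56 in shNC and 49.9 in shNAT10, with log10 FDR of -4.06 and -46.8. TOP2A, the topoisomerase of dividing cells, had 4.05 in shNC and 3.8 at the best of its 3 shNAT10 peaks by FDR; the other 2, which overlapped each other, had 39.7. DLD, a subunit of mitochondrial dehydrogenase complexes, had 9.67 and 21.1.

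The largest gaps of genes with a symbol in the deposited table were those of EIF4G3, IFT122, PITPNC1, PHKB and PTK2B. EIF4G3, a scaffold of cap-dependent translation initiation, had its shNC peak in the 3′-UTR (chr1:20806652-20806832, fold enrichment 29.7, log10 FDR -7.40). Its shNAT10 peak lay 369422 nt away on the 5′ side (chr1:21176255-21176768) with 3.66 and -2.00. IFT122 had 28.8 and -36.3 near its 3′ end in shNC (chr3:129519144-129520327) and 4.23 and -1.16 at its start in shNAT10. PTK2B, a focal adhesion kinase, had 8.98 and -1.26 in shNC and 65.1 and -52.1 in shNAT10. PHKB, of phosphorylase kinase, had 16.1 in shNC and 8.45 in shNAT10, with log10 FDR of -11.1 and -1.07. PITPNC1, a phosphatidylinositol transfer protein, had 18 and 11, with -3.82 and -10.9. In 3 of these 5 genes 1 of the peaks had an FDR above 0.05, with a log10 FDR of -1.16, -1.07 or -1.26.

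Among genes with several peaks, PPP1CB, a catalytic subunit of protein phosphatase 1, had 1 shNC peak of fold enrichment 6.13 and shNAT10 peaks of 9.21, 9.46 and 11.8. All of its shNAT10 peaks lay on the 3′ side. PACS2, a sorting protein, had 2 peaks in each list and a smallest gap of 29 nt. AC004241.1, an antisense RNA, had 3 shNAT10 peaks on both sides of its shNC peak. Strand assignment of the reads is not given in the sources used here, so reads of AC004241.1 and of its partner on the other strand cannot be told apart.

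Gene lists were read against the 2623 genes in both lists that had a name, of which 358 (13.6%) were moved. Where a list had 0 moved genes, the upper limit given is 3 divided by its number of genes. This is an approximation, and it is too wide for the shortest lists. Ribosomal protein genes had no moved member among 73, which allows a share of up to 4.11%, and 71 of the 73 were in the strongest of the 4 groups of genes. The lists were made by symbol and hold only part of each class of genes. None of 37 genes with a UBE2, UBE3, USP or PSM symbol was moved, which allows up to 8.11%. MARCH9, UBE4B, CUL5 and RNF4, of the ubiquitin system but outside that list, were moved. For 19 keratin, junction, laminin and integrin genes (up to 15.8%), 13 mitochondrially encoded genes (23.1%), 5 enzymes or readers of RNA modifications (60%) and 4 cytokine receptor genes (75%), 0 moved genes allow shares above the 13.6%. TRMT2A and CMTR2, which methylate RNA, and the collagen gene COL27A1 were outside those lists and were moved. These genes outside the lists were picked after their values were seen. All 13 mitochondrially encoded genes were in the strongest group. Of 36 genes with an EIF or EEF symbol 3 were moved. These were EIF4G3 and the RefSeq genes EIF3J and EEF1AKMT4-ECE2, the last of which encodes a methyltransferase and a protease and no translation factor.

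In the MAP kinase cascade list 3 of 8 genes were moved, a count too small to read against the 13.6%. MAP2K7, a kinase that activates JNK, had shNC peaks with fold enrichments of 11.1, 7.25 and 4.14 and a shNAT10 peak of 23.1, the last 119 nt beyond the third in the 3′-UTR. Its log10 FDR was -3.76 at best in shNC and -28.1 in shNAT10. The others lay on the RefSeq genes MAP4K1 and MAP3K6, and both had a log10 FDR of 0 in shNAT10. Of 49 genes with an SLC or ABC symbol 8 were moved (16.3%). Most such genes encode transporters, but not all, as ABCE1 below shows. ABCB9, a lysosomal peptide transporter, had 19.7 in shNC and 4.86 in shNAT10, 59 nt apart. ABCE1, a ribosome recycling factor, had 13.8 and 11. ABCF3 had 11.3 and 4.65, and SLC1A4, a neutral amino acid transporter, 12.4 and 36.3.

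Of 19 zinc finger genes 5 were moved (26.3%), and 11 of the 19 were in the weakest of the 4 groups. ZNF787 had 3.54 in shNC and 17.3 in shNAT10, ZNF207, a spindle assembly factor, 2.76 and 43.9 at its stronger shNAT10 peak, and ZNF574 14.2 and 10.1. Of 19 chromatin genes 4 were moved (21.1%). KDM5B, a histone H3 lysine demethylase, had 38.0 in shNC and 32.1 in shNAT10 at its best peaks, both in the 3′-UTR. SMARCA5, the ISWI ATPase, had 64.2 and 26.2, 388 nt apart. SMARCD3, of the BAF complex, had 38.0 and 25.6 in shNC on either side of a shNAT10 peak of 7.61 with a log10 FDR of 0. None of the genes named in the paper for these cells was moved, among those with a peak in both lists under a matched name. Those were only NAT10, UBE2V1, MAP2K2 and MAPK3, too few to read against the 13.6% of all named genes. GLMP had a peak in shNC only, so the rule could not count it as moved.

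The fold enrichments at both places of a gene were set side by side. Over the 347 moved genes with 1 peak in each list, Spearman's rho between the shNC and the shNAT10 fold enrichment was 0.09, against 0.33 over 1527 overlapping genes of that kind. These are descriptions across genes of the same libraries, and genes are not replicates. The shNAT10 value was the higher one in 160 of the 347 genes. The larger value was at least 2 times the smaller in 164 of the 347 (47.3%) and in 725 of the 1527 (47.5%).

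Some moved places were also listed under another gene. On the same strand, a moved peak overlapped a peak of a different gene in its own list in 20 of 510 cases in shNC (3.92%) and 21 of 508 in shNAT10 (4.13%), against 7.24% and 7.31% of overlapping peaks. On either strand the counts were 57 (11.2%) and 61 (12%), against 17.6% and 17.5%. In all, 80 of the 446 moved genes (17.9%, 14.7 to 21.8) had a moved peak at a place listed under another gene in either list. ABCB9, ATG9A, SMC4, AC004241.1, EEF1AKMT4-ECE2 and RPP21 were among them, so their peaks cannot be assigned to 1 gene. Without every gene with such a peak, 366 of 2548 genes were moved (14.4%). A peak of a different gene in the other list covered the place of 1 moved shNC peak and of 4 moved shNAT10 peaks on either strand. On the same strand this was 0 in shNC and 1 in shNAT10, that of RPP21, a subunit of ribonuclease P. Moved genes lay on all autosomes and the X chromosome, with 48 on chromosome 19 (13.0% of its genes in both lists). Of the 208 moved genes with a biotype, 198 were protein-coding.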

How the data were processed

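A company called the peaks for the authors, comparing IP with input separately for shNC and shNAT10. Their deposited lists give each peak's position, exonic blocks, fold enrichment as a linear ratio, and p-value and FDR as log10 values. From their table of differential peaks, only region classes, symbols and site positions were used, and its fold changes, p-values and FDRs between conditions were left out. The submitters' processing notes name cutadapt 2.5, HISAT2 2.1.0, HOMER 4.10.4 and featureCounts 1.6.3. The genome build is not named; positions matched GRCh38 and are counted from 1. The lists were assigned to conditions through a prefix shared with the labels.

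Symbols came from the deposited table for 208 moved genes; 150 others are named as the 1 RefSeq gene that held all their peaks on the same strand (for genes with a symbol, this name was the same in 1559 of 1603 cases, 97.3%), and 88 have no name. Shares have Wilson intervals, differences Newcombe intervals and medians order-statistic intervals, all at 95% and for the sampling of peaks or genes only. The exception is a gene list with 0 moved members, whose upper limit is 3 divided by its number of genes. No test between conditions was run. Genes were named by a rule: the 15 strongest, the 5 smallest and 5 largest gaps, the 5 with most peaks, genes of the paper and of fixed lists, with a symbol from the table. Of these, 3 are not reported here. The members, lists and comparisons were chosen with earlier results of these data known. The overlap rule was tested on simulated data. Software was Python 3.11.15 (numpy 2.4.6, scipy 1.17.1, pandas 2.3.3 and, for plots, matplotlib 3.10.9).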

Additional observations from a re-analysis of the deposited data

How the results depend on the processing

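The number of moved genes, their median log10 FDR, gap and direction, and the 3′-UTR and site shares were recomputed under 8 other settings, 9 results in all; the other values of the report were not. Of these values 59 stayed within 1.5 times the main count or within the main value's 95% interval, and 13 did not. Requiring overlap of at least 50% of both peaks raised the moved genes from 446 to 948, moved the median log10 FDR to -5.91 in shNC and -4.96 in shNAT10, and made the median gap -8 nt, where a negative gap is an overlap. Counting peaks within 100 nt as shared raised the median gap to 867.5 nt. With peaks of an FDR of at most 0.05, the median log10 FDR was -4.63 in shNC and -4.33 in shNAT10. With an FDR of at most 1e-10, 55 genes were moved (3.22% of 1707) and the median log10 FDR was -21.5 and -23.4. The 3′-UTR share was then 43.2% and 41.7%, and the share of shNC peaks with a site was 59.5%. Fewer and stronger peaks enter these by construction. Peaks were removed before the rule was applied, so a gene also counted as moved once its overlapping peaks fell out. Only 17 of the 446 moved genes had best peaks at this limit in both lists. Most of the 55 are therefore genes with an overlapping pair in the full lists, and the shares are largely theirs. Genomic spans in place of exonic blocks changed no value. The share of moves toward the 3′ end stayed between 45.5% and 49.5% under every setting run for it. The band of FDR between 1e-10 and 0.05, for the 3′-UTR and site shares, and leaving out genes whose peaks overlap those of another gene on either strand were chosen after seeing the data, and all 13 values under these stayed within those limits. No paired analysis was possible because there was a single IP and a single input library per condition. With 1 library of each kind and unknown depth, a peak that is missing at a place in 1 list was not shown to be absent there.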
